A study of Homo sapiens with 3 samples.

Results

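The mitochondrial ribosomal protein genes were taken as the protein-coding genes whose symbol begins MRPL or MRPS followed by a digit, plus DAP3 and PTCD3, which encode small subunit proteins under other names. The deposited table of 22827 genes held 79 of them, 48 of the large subunit by symbol and 31 of the small subunit. The annotation has 80 such genes, and MRPL45 was not analysed here. The members were chosen by name and not by any measured value, although earlier results of these data were known at the time.

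Mitochondrial ribosomes translate the messenger RNAs of the mitochondrial genome, which encode core subunits of the respiratory chain and ATP synthase. Their RNA comes from the mitochondrial genome, while all of their proteins are encoded in the nucleus, made in the cytosol and imported. The nuclear factors NRF1, GABP (an ETS family factor) and YY1 are known for binding the promoters of many genes for mitochondrial proteins. SIRT7, a nuclear and nucleolar NAD-dependent deacylase, has been reported to act on GABPβ1 and, with NRF1, at mitochondrial ribosomal protein gene promoters. USP39 is a splicing factor of the tri-snRNP that resembles ubiquitin proteases.

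RNA was sequenced from Hep3B, an established human hepatocellular carcinoma line, in 3 libraries: cells labelled control, cells labelled USP39-KO and cells labelled SIRT7-KO. Each group was 1 library, and neither labels nor protocols say whether a knockout line was 1 clone or a pool of cells or what the control cells carried. Total counts per library were 19427940 for the control, 16630636 for USP39-KO and 16151522 for SIRT7-KO. With 1 library per group there is no replicate check and no p-value: every ratio below describes a pair of libraries, and its 95% interval covers counting error only.

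The targeted genes still had reads in their own knockout libraries. USP39 had 1829 counts in the control library, 1066 in USP39-KO and 1511 in SIRT7-KO, a log2 ratio of -0.54 in USP39-KO against control (95% interval -0.65 to -0.43). SIRT7 had 984, 808 and 608 counts in the same order, a log2 ratio of -0.44 in SIRT7-KO (-0.59 to -0.30). Both were thus lowest in the library labelled with their knockout, and a transcript count does not show whether protein was made. Of 14 hepatocyte and liver cancer markers, 9 had under 10 counts in every library, ALB, AFP and GPC3 at 0 throughout, while CPS1 and ASS1 were abundant. Under 10 counts in every library were also 3 of 6 fibroblast, 4 of 4 endothelial and 4 of 5 leukocyte markers. Other fibroblast markers were well counted: COL1A1 at 1978, 2071 and 1523 and PDGFRB at 301, 217 and 326, ordered as for SIRT7. COL3A1 reached 10 only in SIRT7-KO. Whether the markers fit the named line was not tested. HNF4A, a hepatocyte transcription factor, had 113 counts in the control library, 29 in USP39-KO and 7 in SIRT7-KO, and its part in the results below was not tested.

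Promoter sequence was available for 70 of the 79 members, from RefSeq on GRCh38.p14, as 300 bases from 250 before the transcription start. MRPL2, MRPL10, MRPL13, MRPL15, MRPL21, MRPL23, MRPL35, MRPS28 and MRPS36 had no entry. These strings were searched on both strands: CCGGAAG, a core that ETS factors such as GABP bind, AAGATGGCG, which YY1 binds, and the NRF1 palindrome, in full and in a looser form that leaves 1 of its middle bases free and so includes the full one. CCGGAAG was in 29 member promoters (41.4%), against 10.7% of all 27305 promoters and 19% of the 9746 promoters of protein-coding genes kept in the comparisons. AAGATGGCG was in 14 member promoters (20%), against 1.85% and 3.95%. The looser NRF1 string was in 7 (10%), against 6.28% and 11.7%, and the full one only in that of MRPL17 (1.43% of members, against 1.36% and 2.37%). Over the whole window CCGGAAG and AAGATGGCG were thus more frequent in the member promoters than in either reference set. The shares with the NRF1 strings over the whole window lay between those of the reference sets. In 24 members (34.3%) a CCGGAAG began within 50 bases of the start, against 6.01% of all promoters and 11.2% of those of kept genes. An AAGATGGCG did so in 12 (17.1%), against 1.3% and 3.07%. The looser NRF1 string did so in 1 (1.43%), against 3.22% and 5.69%, and the full one in 0, against 0.707% and 1.08%. Near the start the NRF1 shares of members were thus below those of both reference sets. A match is a description of letters and not a bound site, and a promoter without one says only that these letters are not in the window.

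The promoters of 6 members are shown, since the ratios below turn on their genes or they carry the strings. They are those of MRPS25 and MRPL33, both past a log2 difference of 0.32 in USP39-KO, of MRPL55 and MRPS31, the ends of the SIRT7-KO range among well-counted members, of MRPS18A, which carries an ETS and a YY1 string, and of MRPL17. Each starts 250 bases before the RefSeq start and stops before it would hold more than 20 annotated exon bases. Capitals mark the strings, and sequences are written 5′ to 3′ on the gene's strand.
MRPS25 (chr3:15065316-15065565, minus strand): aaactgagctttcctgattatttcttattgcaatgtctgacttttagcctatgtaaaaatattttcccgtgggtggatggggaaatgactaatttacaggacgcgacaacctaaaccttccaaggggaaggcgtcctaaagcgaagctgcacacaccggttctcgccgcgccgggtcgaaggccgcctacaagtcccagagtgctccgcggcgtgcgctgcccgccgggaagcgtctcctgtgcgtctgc
MRPL33 (chr2:27771469-27771736, plus strand): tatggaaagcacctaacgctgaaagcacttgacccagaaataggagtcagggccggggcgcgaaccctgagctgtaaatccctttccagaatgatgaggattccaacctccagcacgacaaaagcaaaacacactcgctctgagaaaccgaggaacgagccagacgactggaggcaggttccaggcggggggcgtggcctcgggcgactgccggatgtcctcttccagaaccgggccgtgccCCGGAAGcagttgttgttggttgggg
MRPL55 (chr1:228109293-228109549, minus strand): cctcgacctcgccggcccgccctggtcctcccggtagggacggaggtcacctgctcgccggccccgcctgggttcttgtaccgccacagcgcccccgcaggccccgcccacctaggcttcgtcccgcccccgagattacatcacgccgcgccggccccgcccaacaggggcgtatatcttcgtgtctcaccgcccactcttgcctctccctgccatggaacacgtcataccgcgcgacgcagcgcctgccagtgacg
MRPS31 (chr13:40771171-40771440, minus strand): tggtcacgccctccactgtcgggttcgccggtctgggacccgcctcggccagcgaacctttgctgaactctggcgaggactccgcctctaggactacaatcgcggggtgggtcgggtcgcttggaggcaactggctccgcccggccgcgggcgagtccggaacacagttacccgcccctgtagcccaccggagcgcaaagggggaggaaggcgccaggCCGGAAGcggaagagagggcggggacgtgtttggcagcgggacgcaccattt
MRPS18A (chr6:43687772-43688041, minus strand): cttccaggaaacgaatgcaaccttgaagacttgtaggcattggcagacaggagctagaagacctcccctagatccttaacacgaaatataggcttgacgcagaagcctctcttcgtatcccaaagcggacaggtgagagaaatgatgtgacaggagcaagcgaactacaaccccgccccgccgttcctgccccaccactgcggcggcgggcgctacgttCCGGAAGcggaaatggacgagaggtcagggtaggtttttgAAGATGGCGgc
MRPL17 (chr11:6683382-6683590, minus strand): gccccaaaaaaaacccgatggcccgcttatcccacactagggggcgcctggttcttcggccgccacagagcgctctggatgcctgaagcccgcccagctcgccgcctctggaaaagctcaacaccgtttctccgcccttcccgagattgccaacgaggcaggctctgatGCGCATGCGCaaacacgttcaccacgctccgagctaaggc
In MRPS31 and MRPS18A the ETS string lay at nearly the same distance before the start, beginning at bases -32 and -31, and the YY1 string of MRPS18A began at base 9, with the start counted as 0. The NRF1 string of MRPL17 ran from base -81 to base -72. The windows of MRPS25 and MRPL55 held none of the strings.

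Levels are compared between genes as FPKM, which is per transcript length as the authors list it. The range was wide. MRPS34, a small subunit protein found only in mitochondrial ribosomes, was the highest member in every library, at 147 FPKM in the control library, 153 in USP39-KO and 152 in SIRT7-KO. MRPL3, a core protein near the peptidyl transferase centre, followed at 114, 111 and 93.6 FPKM, lowest in SIRT7-KO. MRPL37 stood at 66, 69.5 and 66.6 FPKM, MRPS35 at 51.7, 54.7 and 48.2, and MRPL51 at 49.5, 49 and 53.8. The order of these 5 was the same in the control and USP39-KO, and in SIRT7-KO MRPL51 stood above MRPS35. The large subunit median was 16.1 FPKM in the control library, 16.6 in USP39-KO and 17.3 in SIRT7-KO, and the small subunit median 16.5, 14.1 and 13.1. Such a median can fall on different genes: for the small subunit it was MRPS25 in the control and MRPS7 in both knockouts. It does not give the change per gene. The median log2 ratio was 0.05 for the small subunit in USP39-KO and -0.07 for the large subunit in SIRT7-KO. Over all 12726 genes with at least 10 counts in a library the median was 6.16, 6.04 and 6.23 FPKM. As a share of all counts the large subunit genes held 0.229%, 0.228% and 0.223%, and the small subunit genes 0.2%, 0.196% and 0.194%. In bulk RNA, fewer cells with a transcript and less transcript per cell cannot be told apart.

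**Figure D1:**
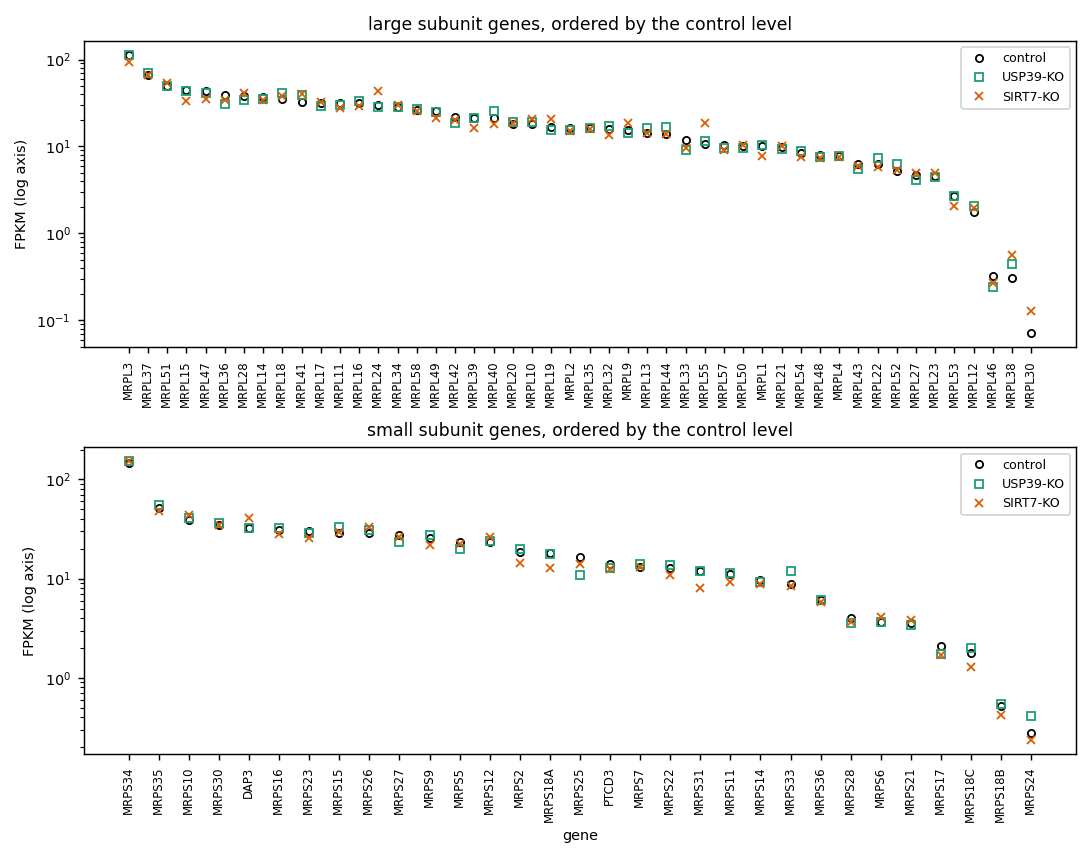
FPKM of each member (log axis) in the control (circles), USP39-KO (squares) and SIRT7-KO (crosses), large subunit above and small subunit below, ordered by the control; 1 library per group, so no error bars. MRPS34 and MRPL3 lead, most members have their 3 symbols close together, and MRPL30, at 0 in USP39-KO, has no square.

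The lowest members were far below the rest. MRPL30 was at 0.071 FPKM in the control library, 0 in USP39-KO and 0.128 in SIRT7-KO, from 4, 0 and 6 counts. MRPS24 was at 0.276, 0.414 and 0.237 FPKM, MRPL38 at 0.308, 0.446 and 0.563, MRPL46 at 0.328, 0.243 and 0.27, and MRPS18B at 0.518, 0.541 and 0.426. MRPL12, the stalk protein that recruits translation factors, was at 1.75, 2.05 and 1.99 FPKM from 35, 35 and 33 counts. Shared exons on the same strand were more common among the members with few counts. Of the 9 members under 100 counts in every library (MRPL12, MRPL30, MRPL38, MRPL46, MRPL53, MRPS17, MRPS18B, MRPS21 and MRPS24), 7 share annotated exon bases with another gene on the same strand, against 9 of the other 70. How the authors' counting treated reads that fall on more than 1 gene is not given, and its part in these levels was not tested. On either strand, 24 of 48 large and 18 of 31 small subunit members share exon bases with another gene, and whether the counting used strand is not given either, so their values are uncertain. FAU, a cytosolic ribosomal protein gene that overlaps MRPL49 on the other strand, had 749, 550 and 532 counts, beside 1518, 1276 and 1060 for MRPL49.

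All ratios below are log2 ratios of normalised counts, and 78 of the 79 members entered them, all but MRPL30, which stayed under the minimum of 10 counts. A gene was called higher or lower when its log2 ratio was at least 0.32 from 0 (25% more or 20% less) and its counting interval excluded 0. No member reached a 2-fold difference in any of the 3 comparisons.

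Whether loss of USP39, a splicing factor, came with other levels of these transcripts is the question of the first comparison. In USP39-KO against control the members stood close to no difference. The large subunit median was 0.00, with 24 of 47 members above 0 and 23 below, and the small subunit median was 0.05, with 21 of 31 above and 10 below. Over all genes kept the median was 0.00 and 49.6% lay above 0. Only 1 member was called higher, where 7.61% of all genes were, and 2 were called lower, where 11.4% were. In all, 72 of 78 members had a ratio within 0.32 of 0. Intervals lay wholly above 0 for 13 members (16.7%, against 22% of all genes) and wholly below 0 for 8 (10.3%, against 22.5%). The summed counts of the 78 members gave a log2 ratio of 0.00 (-0.01 to 0.01). At 2-fold, which no member reached, 1.49% of all genes were higher and 3.37% lower.

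MRPS25, a small subunit protein that mitochondrial ribosomes have without a bacterial counterpart, was the farthest from 0 among members with 100 counts or more. It had 1726 counts in the control library, 976 in USP39-KO and 1229 in SIRT7-KO, or 16.5, 10.9 and 14.1 FPKM. Its level was thus lowest in USP39-KO, just short of 1.5-fold, with a log2 ratio of -0.58 (-0.70 to -0.47). The gene (ENSG00000131368) lies on the minus strand at chr3:15042460-15065335 of GRCh38, and its exons overlap those of NR2C2, a nuclear receptor on the other strand. NR2C2 had 671, 419 and 510 counts, a ratio of -0.44 in USP39-KO, so both genes were low in the same library. Without strand, reads in the bases they share cannot be told apart, and how many bases they share was not measured. MRPL33, a small core protein of the large subunit, had 359, 234 and 241 counts, the only other member called lower, at -0.38 (-0.62 to -0.14). It shares exon bases with BABAM2 on the same strand, whose ratio was -0.05. Less the median of its 20 neighbouring genes, an alternative chosen after the data were seen, MRPL33 was at -0.30 and not called, and MRPS25 was at -0.61.

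Other members at the low end were not called. MRPL36, another small core protein of the large subunit, had 1056, 719 and 769 counts, just short of the rule in USP39-KO at -0.32 (-0.45 to -0.18). MRPS5, a core protein of the messenger entry side, had 3072, 2232 and 2451 counts (-0.22, interval -0.30 to -0.14). MRPS27, a pentatricopeptide repeat protein of the small subunit, had 3476, 2527 and 2762 counts (-0.22, -0.30 to -0.15). MRPL42, a large subunit protein particular to mitochondrial ribosomes, had 1662, 1229 and 1300 counts (-0.20, -0.30 to -0.09). For these members the control was the highest of the 3 libraries on the normalised scale, and SIRT7-KO lay nearer to it than USP39-KO did.

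MRPS33, a small protein of the small subunit head, was the only member called higher in USP39-KO. Its counts were 312 in the control library, 362 in USP39-KO and 250 in SIRT7-KO, or 8.83, 12 and 8.51 FPKM, with a ratio of 0.45 (0.23 to 0.68). It stood apart in USP39-KO, while the control and SIRT7-KO levels lay within counting error of each other. The median of its 20 neighbouring genes in USP39-KO was 0.15, and less that median MRPS33 was at 0.30 and not called. Genes on its chromosome, 7, had a median of 0.12 in USP39-KO, with 69.4% above 0, and their part in this call was not tested. MRPL40 and MRPL41, both large subunit proteins without a bacterial counterpart, had 806, 835 and 576 counts (0.29, interval 0.15 to 0.43) and 794, 812 and 827 counts (0.27, 0.13 to 0.41). MRPL44, a protein with an RNase III-like fold, had 478, 489 and 395 counts (0.27, 0.09 to 0.46). MRPL18, a protein of the central protuberance, had 940, 933 and 856 counts (0.23, 0.10 to 0.36), and MRPS15, a core small subunit protein, 1652, 1599 and 1387 (0.19, 0.09 to 0.29). None of these 5 was called.

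**Figure D2:**
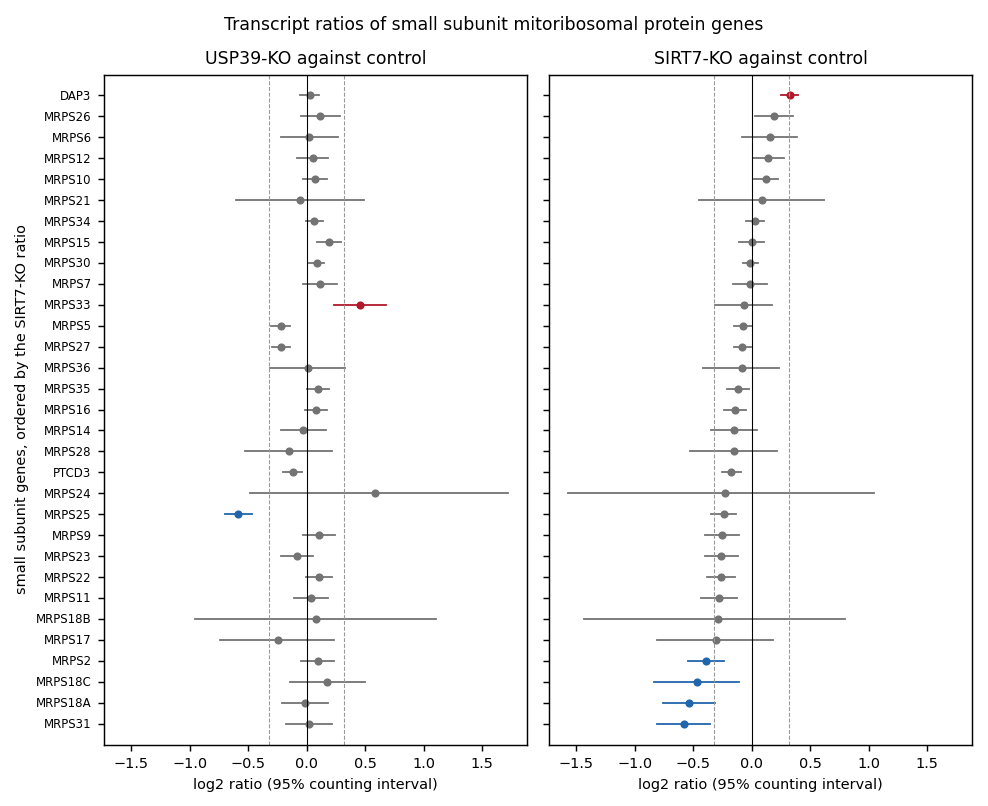
Log2 ratio of each small subunit member in USP39-KO against control (left) and SIRT7-KO against control (right), with its 95% counting interval; red is called higher, blue called lower, dashed lines lie at 0.32 either way. On the left MRPS33 and MRPS25 are the 2 coloured points, and on the right DAP3 is red while MRPS2, MRPS18C, MRPS18A and MRPS31 are blue.

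Whether loss of SIRT7, a deacylase reported at promoters of these genes, came with other levels of their transcripts is the question of the second comparison. In SIRT7-KO against control more members lay below 0 than above, by small amounts. The large subunit median was -0.07, with 18 of 47 members above 0 and 29 below, and the small subunit median was -0.14, with 7 of 31 above and 24 below. Over all genes kept the median was -0.01 and 48.7% lay above 0. Called higher were 4 members (5.13%), where 14.9% of all genes were, and called lower were 8 (10.3%), where 15% were. The shares of members called were therefore at or below the share over all genes in both directions, although more members lay below 0. Intervals lay wholly below 0 for 24 members (30.8%, against 28.8% of all genes) and wholly above 0 for 11 (14.1%, against 27.3%). The summed counts gave -0.05 (-0.07 to -0.04). At 2-fold, which no member reached, 3.02% of all genes were higher and 4.05% lower.

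The 8 members called lower came from both subunits. MRPS31, a protein of the small subunit head, had 458 counts in the control library, 394 in USP39-KO and 257 in SIRT7-KO, or 12, 12.1 and 8.11 FPKM. The control and USP39-KO levels lay together and SIRT7-KO lay below them, at -0.58 (-0.81 to -0.36). MRPS18A, which is named for the small subunit but sits in the large one, had 453, 380 and 263 counts, or 18.2, 17.8 and 12.7 FPKM (-0.53, interval -0.76 to -0.31). MRPS18C, the paralogue in the small subunit, had 168, 161 and 102 counts (-0.47, -0.84 to -0.10). The other paralogue, MRPS18B, had 19, 17 and 13 counts, too few for a difference of this size to be seen (-0.29, -1.44 to 0.80). MRPS2, a core protein of the small subunit, had 892, 807 and 573 counts (-0.39, -0.54 to -0.23). In MRPS18C and MRPS2, as in MRPS31, only SIRT7-KO was low.

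Of the large subunit, MRPL15, a core protein of its interior, had 1032, 866 and 637 counts, or 44.6, 43.7 and 33.1 FPKM (-0.44, -0.59 to -0.30). MRPL39, a protein particular to mitochondrial ribosomes, had 495, 427 and 320 counts (-0.38, -0.59 to -0.17). MRPL1, the protein of the L1 stalk through which spent transfer RNA leaves, had 380, 337 and 246 counts (-0.38, -0.61 to -0.14). In each of these 3 the control and USP39-KO agreed within counting error and SIRT7-KO was low. MRPL33 was just past the rule at -0.32 (-0.56 to -0.08), and lost this call under DESeq2 size factors (-0.31), library totals alone (-0.31), a prior of 2 counts and less the median of its neighbours (-0.22). MRPL3, the best counted member, had 5996, 5028 and 4105 counts, 1.23-fold lower in SIRT7-KO (-0.30, -0.35 to -0.24), which the rule does not call. Without the members that share exons with another gene, the small subunit median was -0.07 over 13 members, with 1 called lower and 0 higher: the exons of MRPS18A, MRPS18C, MRPS2 and DAP3 overlap those of RSPH9, ABRAXAS1, C9orf116 and YY1AP1 on the other strand. With 1.5-fold as the rule, 0 members of either subunit were lower.

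The 4 members called higher were MRPL55, MRPL24, MRPL38 and DAP3. MRPL55, a large subunit protein without a bacterial counterpart, had 390 counts in the control library, 363 in USP39-KO and 569 in SIRT7-KO, or 10.6, 11.6 and 18.7 FPKM. It was 1.74-fold higher in SIRT7-KO than in the control (0.80, interval 0.61 to 0.99), with the other libraries close together. MRPL24, a core protein near the exit tunnel, had 1000, 794 and 1198 counts, or 30.4, 28.2 and 43.8 FPKM (0.51, 0.39 to 0.63). DAP3, a GTP-binding protein of the small subunit, had 2872, 2476 and 3022 counts, or 32.2, 32.5 and 40.8 FPKM (0.32, 0.25 to 0.40). DAP3 was thus just past the rule. MRPL38 had 25, 31 and 38 counts, and its interval ran from 0.09 to 1.65 around 0.84. Close below the rule were MRPL41 with 794, 812 and 827 counts (0.31, 0.17 to 0.45) and MRPL19 with 1479, 1185 and 1536 (0.31, 0.20 to 0.41). MRPL9 had 548, 428 and 548 counts (0.25, 0.08 to 0.43).

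**Figure D3:**
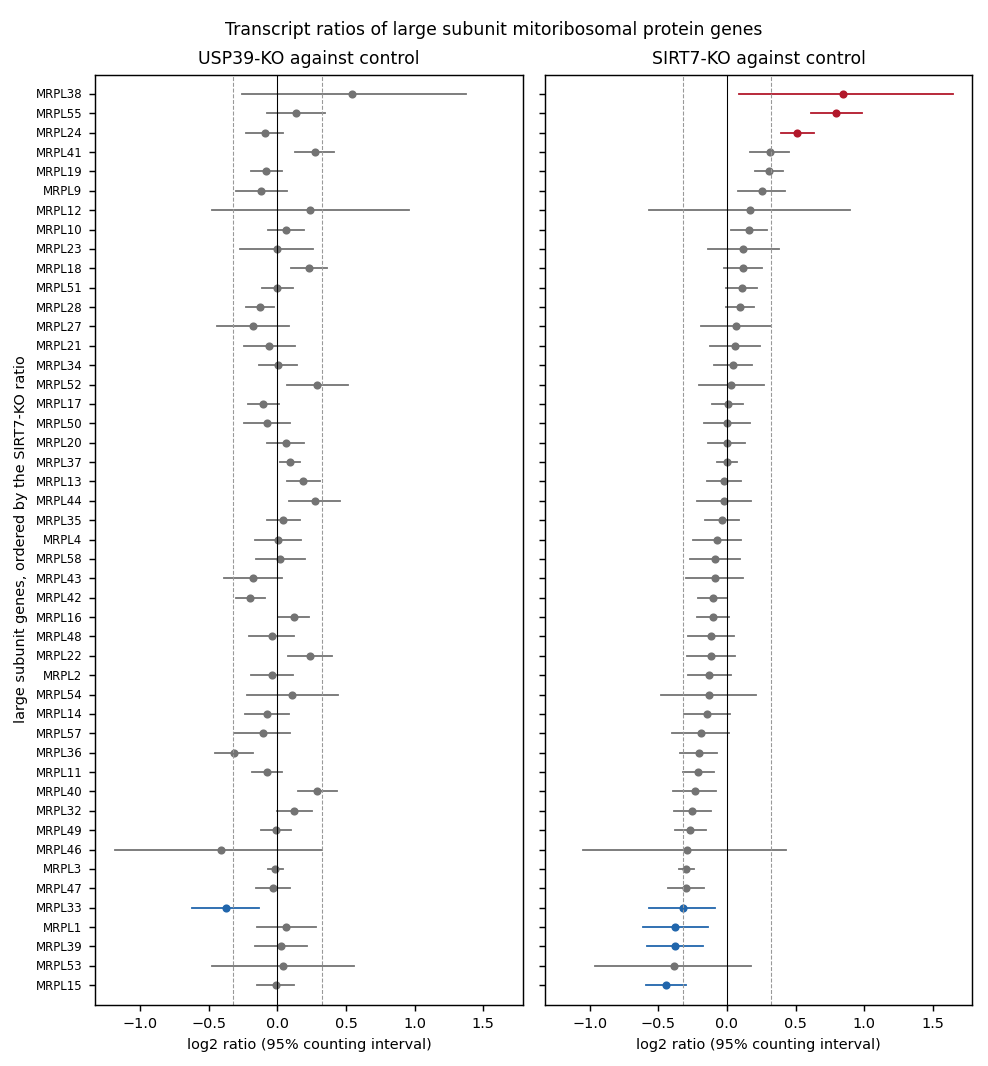
Log2 ratio of each large subunit member in USP39-KO against control (left) and SIRT7-KO against control (right), with its 95% counting interval; red is called higher, blue called lower, dashed lines lie at 0.32 either way. On the left only MRPL33 is coloured, and on the right MRPL38, MRPL55 and MRPL24 are red and MRPL33, MRPL1, MRPL39 and MRPL15 blue.

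Of the members called higher in SIRT7-KO, 3 lie on chromosome 1, and their neighbours were higher too. MRPL55 (ENSG00000162910, minus strand) is at chr1:228106679-228109312, MRPL24 (ENSG00000143314, minus strand) at chr1:156737303-156741590 and DAP3 (ENSG00000132676, plus strand) at chr1:155687960-155739010 of GRCh38. Up to 20 neighbouring genes, 10 on each side, had a median ratio of 0.38 around MRPL55, 0.41 around MRPL24 and 0.28 around DAP3. Around MRPL9 and MRPS21, also on chromosome 1, the neighbours' medians were 0.43 and 0.38, and the members were at 0.25 and 0.09. The 4 other chromosome 1 members lay at 0.00 in MRPL20, MRPL37 and MRPS15 and at -0.15 in MRPS14, with neighbours from -0.15 to -0.01. Less the median of their neighbours, MRPL55 was at 0.42, MRPL24 at 0.11, DAP3 at 0.05 and MRPL9 at -0.18, so that DAP3 and MRPL24 no longer passed the rule. This subtraction was chosen after the data were seen, and why the neighbours were higher was not tested.

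Over the 78 members the ratio and the median of the neighbours had a Pearson r of 0.41 and a Spearman rho of 0.28 in SIRT7-KO against control, and of 0.05 and 0.02 in USP39-KO. These describe genes within a pair of libraries, which are not replicates. Of the 8 members called lower, 4 lost the call less the median of their neighbours: MRPS18A at -0.30, MRPL39 at -0.24, MRPL33 at -0.22 and MRPS18C, at -0.33 with an interval that then reached 0. MRPL32 (-0.50) and MRPL11 (-0.44) were called lower only after this subtraction. The neighbours' median was -0.08 around MRPS31, 0.05 around MRPS2, -0.14 around MRPS18C, -0.11 around MRPL15, -0.13 around MRPL39, 0.04 around MRPL1 and -0.10 around MRPL33. It was lowest around MRPS18A, at -0.23. The ratio also had a Spearman rho of 0.29 with the GC percent of the longest transcript over the 78 members, against 0.04 over 12380 genes kept, and the part of GC content in the ratios was not tested. Without the 9 chromosome 1 members the medians in SIRT7-KO were -0.10 for the large subunit (27 of 42 below 0) and -0.15 for the small (22 of 27 below 0).

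**Figure D4:**
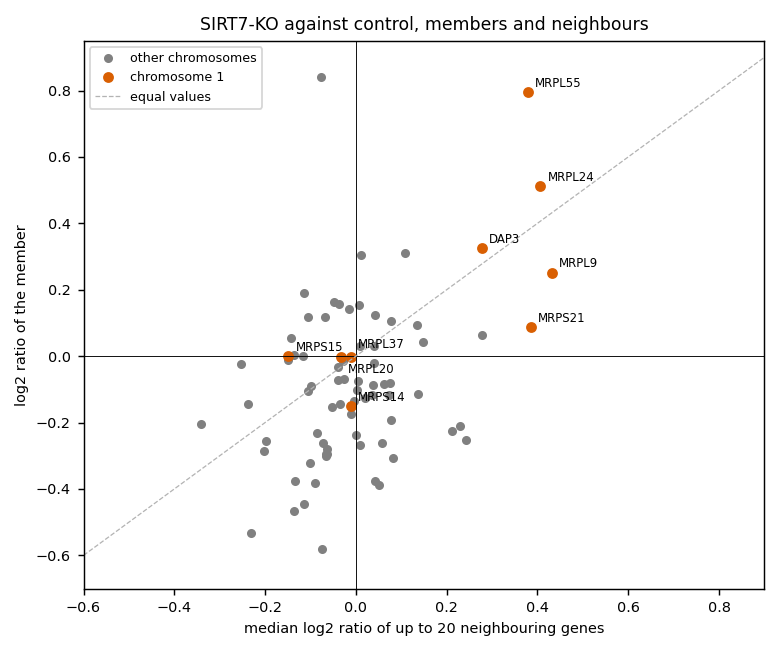
Log2 ratio of each member in SIRT7-KO against control (vertical axis) against the median ratio of up to 20 neighbouring genes (horizontal axis), 1 point per member, chromosome 1 members in orange and the dashed line marking equal values. MRPL55, MRPL24, DAP3, MRPL9 and MRPS21 lie at the right, where the neighbours' median is 0.28 to 0.43, and the other 4 chromosome 1 members lie near or left of 0.

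Some members were described whatever their values. PTCD3, a pentatricopeptide repeat protein at the messenger entry, had 2790, 2174 and 2077 counts, with -0.12 (-0.20 to -0.04) in USP39-KO and -0.17 (-0.26 to -0.09) in SIRT7-KO. MRPS30, a large subunit protein in spite of its name, had 4221, 3797 and 3515 counts, with 0.09 (0.02 to 0.15) and -0.01 (-0.08 to 0.05). MRPL58, a peptidyl-tRNA hydrolase that is built into the large subunit, had 572, 492 and 453 counts, with 0.02 (-0.15 to 0.20) and -0.08 (-0.27 to 0.10). MRPS36, now known as a subunit of the oxoglutarate dehydrogenase complex, had 182, 155 and 144 counts, with 0.01 (-0.31 to 0.32) and -0.09 (-0.41 to 0.24). MRPL12 had 0.24 (-0.48 to 0.96) and 0.16 (-0.56 to 0.90), intervals too wide to show a difference of the size seen in other members. MRPS34, the most abundant, was at 0.07 (-0.01 to 0.14) and 0.03 (-0.05 to 0.10).

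The ratios of the knockout libraries to each other leave out the control counts, though the scaling factors and the filter used all 3 libraries. In SIRT7-KO against USP39-KO the large subunit median was -0.08, with 20 of 47 members above 0, and the small subunit median -0.12, with 9 of 31 above, where 49.6% of all genes lay above 0. Called higher were 5 members (6.41%), where 18.3% of all genes were, and called lower 13 (16.7%), where 17% were. Intervals lay wholly above 0 for 9 members (11.5%, against 29.2% of all genes) and wholly below 0 for 28 (35.9%, against 29.8%). At 2-fold, which no member reached, 5.03% of all genes were higher and 3.51% lower. Higher were MRPL55 (0.66, interval 0.47 to 0.85), MRPL24 (0.61, 0.48 to 0.74), MRPL19 (0.39, 0.28 to 0.50), MRPL9 (0.37, 0.18 to 0.55) and MRPS25 (0.34, 0.22 to 0.47), while DAP3 was at 0.30 (0.22 to 0.38) and uncalled. By the upper end of the interval, among members with 100 counts or more, the lowest were MRPS31 (-0.60, -0.84 to -0.37), MRPS33 (-0.52, -0.76 to -0.29), MRPL40 (-0.52, -0.68 to -0.37), MRPS18A (-0.52, -0.75 to -0.29), MRPS2 (-0.48, -0.64 to -0.33) and MRPL15 (-0.43, -0.58 to -0.28). MRPS18C had the lowest ratio of those called (-0.64), with a wider interval, and MRPL1, MRPL22, MRPL32, MRPL39, MRPS9 and MRPS22 were called lower too. Against the control, MRPS33 was high in USP39-KO and MRPS31, MRPS18A, MRPS2 and MRPL15 were low in SIRT7-KO, while MRPL40 was at 0.29 in USP39-KO and at -0.23 (-0.39 to -0.08) in SIRT7-KO. Less the median of their neighbours, 3 of the 5 higher calls (MRPL55 at 0.16, MRPL24 at 0.21 and MRPL9 at -0.21) and 4 of the 13 lower calls (MRPS33, MRPS9, MRPS22 and MRPL22) were lost. Called only after this subtraction were MRPL36 (0.35, higher), MRPL37 (-0.35, lower) and MRPL58 (-0.33, lower).

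The spread between libraries was smaller over the members than over all genes. The chi-square of the counts per degree of freedom, which is 1 for sampling noise alone, was 5.4 over the members and 16.1 over all genes in USP39-KO against control, 9.85 and 30.4 in SIRT7-KO against control, and 11.8 and 39.4 between the knockouts. It grows with the counts, and a few very abundant genes weigh on the value for all genes. Among the 9487 genes with 100 to 6000 control counts it was 15.1, 26.8 and 34.2.

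**Figure D5:**
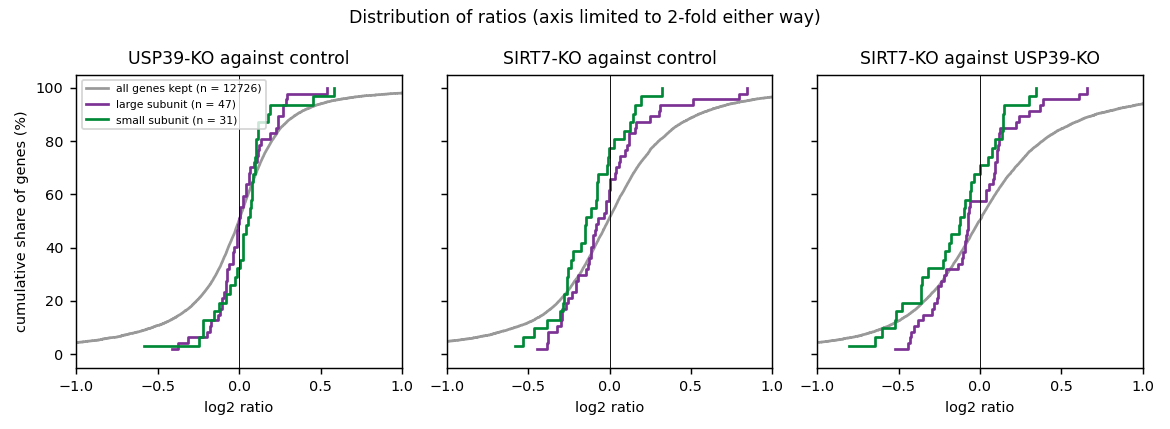
Cumulative share of genes (vertical axis, percent) against log2 ratio (horizontal axis, limited to 2-fold either way) for all 12726 genes kept (grey), 47 large subunit members (purple) and 31 small subunit members (green) in the 3 comparisons. The member curves are steeper than the grey one in each panel, and in SIRT7-KO against control the green curve lies to the left, crossing 0 with 77.4% of its genes below.

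The medians of members with and without the promoter strings follow as a description with no test. In SIRT7-KO against control the 28 members with CCGGAAG in the promoter had a median of -0.10 and the 41 without it -0.10. With AAGATGGCG the median of 14 members was -0.15 and without it, in 55, -0.08. In USP39-KO against control the medians with and without CCGGAAG were 0.05 and 0.02, and between the knockouts -0.14 and -0.08. With the looser NRF1 string the median of 6 members was -0.09 in USP39-KO and -0.17 in SIRT7-KO, and without it, in 63, 0.03 and -0.09. MRPL17, with the full NRF1 string, had 1413, 1115 and 1190 counts and ratios of -0.10 (-0.22 to 0.01) and 0.00 (-0.11 to 0.12). Of the members at the ends of the range, MRPL55 held no string and MRPS31 an ETS string, while MRPS25, low in USP39-KO, held none.

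For 30 members the nearest start of a protein-coding gene on the other strand lay within 1000 bases and that gene had listed counts. Members whose nearest such gene was not listed are not in this number. Some of these pairs had different ratios. MRPS34 was at 0.03 in SIRT7-KO while EME2, an endonuclease subunit 52 bases away, was at -0.81, with its interval wholly below 0. MRPL14 was at -0.15 and TMEM63B at 0.51 (0.38 to 0.64). MRPL43 was at -0.09 and TWNK, the mitochondrial DNA helicase, at -0.39 (-0.54 to -0.24). PTCD3 and POLR1A, the largest subunit of RNA polymerase I, stood 27 bases apart and both below 0, at -0.17 and -0.30. MRPL46 and MRPS11 are each other's neighbours across 34 bases, at -0.29 (-1.05 to 0.43) and -0.28 (-0.43 to -0.12).

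Among proteins and factors that work with the mitochondrial ribosome, the 3 other mitoribosomal proteins, AURKAIP1, CHCHD1 and GADD45GIP1, stayed within 0.32 of 0 in all 3 comparisons. GADD45GIP1 was the most abundant, at 102, 108 and 109 FPKM, with ratios of 0.10 in USP39-KO and 0.07 in SIRT7-KO. Of 29 assembly factors, none was called in USP39-KO, and in SIRT7-KO 1 was higher (3.45%) and 3 were lower (10.3%), with medians of 0.03 and -0.01. Of all genes, 7.61% were called higher and 11.4% lower in USP39-KO, and 14.9% and 15% in SIRT7-KO, which holds for the lists that follow too. NDUFAB1, the mitochondrial acyl carrier protein, had 1000, 1010 and 1098 counts (0.39 in SIRT7-KO). NSUN4, a methyltransferase of the small subunit RNA, had 797, 684 and 522 (-0.36), the protease subunit AFG3L2, which processes MRPL32, 1669, 1342 and 1101 (-0.35), and ERAL1, a GTPase that chaperones the small subunit RNA, 1229, 918 and 821 (-0.33). MRPL32 itself had 1086, 1003 and 765 counts (-0.25, -0.39 to -0.12).

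Of 19 translation factors, 15 (78.9%) lay below 0 in SIRT7-KO, where 51.2% of all genes did, with a median of -0.15. In USP39-KO 11 of 19 did, with a median of -0.06. The 3 called lower (15.8%) and 1 called higher (5.26%) in SIRT7-KO were near and under the shares over all genes. Called lower were PDF, the deformylase (222, 176 and 96 counts, -0.95), RMND1 (369, 226 and 201, -0.62) and GUF1, an elongation factor 4 type GTPase (540, 490 and 348, -0.38). METAP1D, a methionine aminopeptidase, was higher (168, 158 and 188, 0.41). RMND1 was also the only factor called in USP39-KO (-0.47). TUFM, the elongation factor Tu and most abundant of the list, was at 128, 137 and 123 FPKM (0.11 and -0.07). C6orf203 was listed at 0 in every library, which does not show that its transcript was absent.

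Of 19 genes for mitochondrial aminoacyl-tRNA synthetases and the amidotransferase, 2 were called higher and 2 lower in SIRT7-KO (10.5% each, under the shares over all genes), with a median of 0.05. IARS2, the most abundant, had 5287, 4546 and 6867 counts (0.63), TARS2 1012, 953 and 1221 (0.52), YARS2 578, 535 and 313 (-0.63) and GATC 409, 289 and 269 (-0.35). In USP39-KO only WARS2 was called (675, 432 and 513 counts, -0.40). Of 9 genes for transcription and replication of the mitochondrial genome, none was called in USP39-KO. In SIRT7-KO, where 15% of all genes were called lower, 2 were (22.2%): TWNK (977, 919 and 626 counts, -0.39) and the elongation factor TEFM (276, 251 and 184, -0.33). POLG, the DNA polymerase, was the most abundant at 32.2, 32.1 and 30.5 FPKM (0.01 and -0.09).

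Of 10 nuclear regulators, the factors that bind the strings above were within 0.32 of 0 in both knockouts against control. NRF1 had 449, 401 and 427 counts (0.08 in USP39-KO and 0.18 in SIRT7-KO), GABPA 888, 681 and 799 (-0.14 and 0.10), GABPB1 958, 841 and 927 (0.05 and 0.20) and YY1 6726, 5819 and 4581 (0.03 and -0.30). Between the knockouts YY1 was called lower, at -0.33 (-0.39 to -0.28). PPARGC1A, a coactivator of mitochondrial biogenesis, had 849 counts in the control library, 564 in USP39-KO and 331 in SIRT7-KO. It was called lower in both, at -0.35 (-0.51 to -0.20) and -1.11 (-1.29 to -0.92). ESRRA, a nuclear receptor it works with, was called higher in SIRT7-KO (1124, 996 and 1200 counts, 0.35). MYC was the most abundant at 191, 168 and 163 FPKM (-0.17 and -0.24). HCFC1 was listed at 0 in every library, which does not show that its transcript was absent.

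The 13 protein genes translated by these ribosomes and the 72 measured genes of the cytosolic ribosome give the setting. The mitochondrial-genome genes had a median of 0.15 in USP39-KO, with MT-ATP8 (0.57) and MT-CYB (0.33) called higher. These 2 are 15.4% of the list, against 7.61% of all genes. In SIRT7-KO the median of the list was -0.33, with 7 called lower (53.8%, against 15% of all genes). All 13 ratios lay above 0 in USP39-KO, where 49.6% of all genes did, and below 0 in SIRT7-KO, where 51.2% did. All 13 intervals also excluded 0 on those sides, against 22% and 28.8% of all genes. Intervals narrow with counts, so even MT-CO1 at 0.057 (0.050 to 0.065) in USP39-KO excluded 0. The shares over all genes include genes with far fewer counts, so the contrast in intervals partly reflects depth. Whether the 13 genes vary separately from each other was not tested. MT-CO1, the most abundant, had 298696, 263247 and 180638 counts (-0.47 in SIRT7-KO), and MT-ND1, MT-ATP8 and MT-CO3 were at -0.46, -0.46 and -0.42. Beside these, the large and small subunit medians were 0.00 and 0.05 in USP39-KO and -0.07 and -0.14 in SIRT7-KO. The cytosolic ribosomal protein genes had medians of -0.05 and -0.14, with 59 of 72 below 0 in SIRT7-KO. Called lower there were 8 (11.1%), and the shares of all genes called higher and lower are those given above. The small subunit median of -0.14 was thus also that of the cytosolic list, and no test of either against the other was possible with 1 library per group.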

How the data were processed

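Hep3B RNA was taken up in Trizol and made into 3 libraries (TruSeq kit), per the labels' protocols. No source used here names the aligner, counting program, genome build or strand setting. The authors deposited whole-number read counts per gene, not normalized, per the file headers. FPKM values were also deposited by the authors, and each was found to equal the count over listed length and library total within a relative tolerance of 1e-06. Symbols and coordinates came from GENCODE 29 (GRCh38) by Ensembl identifier, which matched 19649 of 22827 identifiers.

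Counts were scaled by TMM (edgeR 4.0.16, R 4.3.3), with factors of 1.00004, 0.98965 and 1.01042 for control, USP39-KO and SIRT7-KO. The 12726 genes with at least 10 counts in a library were kept. For each gene and pair of libraries the log2 ratio used a prior of 0.5 counts, and the 95% interval came from the Clopper-Pearson bounds of the share of the 2 summed counts. Without molecular identifiers reads may be copies, so the intervals hold counting error only. No test across libraries is possible with 1 per group, and shares over all genes kept stand beside those of the members. The steps were run on simulated counts that held counting error only, with Python 3.11.15 and SciPy 1.17.1. That check therefore does not cover any further spread between libraries.

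The members and lists were chosen with earlier results of these data known. Named in each comparison are the 6 members at either end by interval bound, with 100 counts in a library, the 5 highest and 5 lowest by control FPKM, and DAP3, PTCD3, MRPS18A, MRPS18B, MRPS18C, MRPS30, MRPS36, MRPL12 and MRPL58, and from each related list up to 4 members farthest from 0 and the most abundant. Members called by the rule beyond these were named after their values were seen, as were the divergent gene pairs and overlapping genes. MRM1 and RCC1L of the assembly list were not analysed here, and VARS2 did not reach 10 counts. Alternatives were 9 planned settings, among them DESeq2 1.42.0 size factors, and 1 added after seeing the data.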

Additional observations from a re-analysis of the deposited data

How the results depend on the processing

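No paired analysis was possible because there is 1 library per group, and no library could be left out. The medians and called counts of both subunits in the 3 comparisons moved by no more than the limits set under DESeq2 size factors, TMM without the mitochondrial genome, a filter of 1 count, a prior of 2 counts, and subunits taken by place. The limits were 1.5 times for a count and, for a median, the half-width of the interval of the subunit's summed counts (0.0198 to 0.0224). Within them, MRPL33 lost its SIRT7-KO call under DESeq2 size factors, library totals and a prior of 2 counts. With library totals alone, 2 large subunit members were lower in USP39-KO, and between the knockouts the medians were -0.046 (large) and -0.093 (small) and 2 small subunit members were higher. With a filter of 100 counts the small subunit median in SIRT7-KO was -0.12. At 1.5-fold, against control, 0 members were called in USP39-KO and in SIRT7-KO 0 were lower and 0 of the small subunit higher; between the knockouts 2 large subunit members were higher and 0 lower, and 0 small subunit members higher and 2 lower. Without members that share exons, the USP39-KO large median was 0.024 and 0 members of either subunit were lower. In SIRT7-KO the medians were then -0.095 and -0.068, with 0 small subunit members higher and 1 lower. Between the knockouts 2 large subunit members were higher, the small median was -0.10, and 0 were higher and 2 lower. Less the median of 20 neighbouring genes, an alternative chosen after seeing the data, the USP39-KO large median was 0.024 with 2 higher and 0 lower. The small subunit then had 0 higher and 2 lower in USP39-KO. MRPL55, MRPL41 (both higher) and MRPS27 (lower) were called there only after this subtraction. The intervals were shifted by the neighbours' median and carry no error for it. In SIRT7-KO the large median was then -0.041, and the small subunit had 0 higher and 2 lower. Between the knockouts 2 large subunit members were higher and 4 small subunit members lower, and MRPL9 reversed to -0.21. Fewer members entered the filtered and exon-free settings; for the other shifts the cause was not tested. Depth limits the 9 members under 100 counts most.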
